A study of Mus musculus with 11 samples.

Results

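Genes of the p53 pathway and inhibitors of the cell cycle were followed through the conversion of mouse fibroblasts towards pluripotency by 4 transcription factors. The set was named as 10 genes: Trp53, Cdkn1a, Cdkn2a, Cdkn2b, Mdm2, Ccng1, Igfbp3, Ptprv, Perp and Rb1. Each gene was represented by the probe set that lists its symbol alone, and by the brightest of these over the 11 arrays where there were several. 9 of the 10 genes were found in this way, out of 22180 named genes on the array, and Trp53 itself was not analysed here. All 9 passed the filter on low values, which asks for 1 array above the lowest deposited intensity of 100 (the floor), and 8 of the 9 were above the floor on all 11 arrays. The exception was Perp, which was at the floor in uninfected fibroblasts.

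The reprogramming cultures were mouse embryonic fibroblasts (MEF) at passage 4, heterozygous for the doxycycline-dependent activator rtTA at the Rosa locus (Rosa-rtTA +/-), that had been infected with tetO-Sox2, tetO-Oct4, tetO-Klf4 and tetO-Myc. The tetO promoter drives the factors only while doxycycline is given, and doxycycline was added from day 0. At day 6 and day 9 the cultures were double sorted on the surface proteins CD49d or CD73, or left unsorted. The labels call the CD49d+ and the CD73+ cells poised and the CD73- cells non-poised. At either day there is thus 1 array of each gate (CD49d+, CD73+, CD73-) and 1 of unsorted cells, which makes 8 reprogramming arrays, all from infected cultures on doxycycline. The 3 controls are uninfected Rosa-rtTA +/- MEF at passage 4, the partially reprogrammed cell line SC4 at passage 10, which is 1 line, and embryonic stem cells (ESC) of the mouse line V6.5 at passage 11, grown with LIF. Each group has 1 array and none has a replicate, so a value for a single array carries no error.

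p53 is a transcription factor that is stabilised by DNA damage and by oncogenes such as Myc. It switches on Cdkn1a, whose protein p21 blocks the cyclin-dependent kinases, and Mdm2, whose protein marks p53 for degradation and closes a feedback loop. The Cdkn2a locus encodes p16Ink4a, which inhibits CDK4 and CDK6 and so keeps the Rb1 protein active, and p19Arf, which restrains Mdm2. In fibroblasts p53, p21 and the products of the Cdkn2a locus mediate senescence, and they are known as barriers to reprogramming.

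Between 52.14% and 54.31% of the probe sets of an array were at the floor, and the median intensity above it was 347 to 388. The sorted proteins were checked by their genes. At day 6 and day 9 the CD73- arrays had intensities of 332 and 292 for Nt5e (CD73), where CD73+ cells gave 3438 and 3658, and Itga4 (CD49d) was highest of the 11 arrays in both CD49d+ samples, at 1859 and 1588. CD49d+ cells also had Nt5e at 2828 and 2704. CD73+ cells had Itga4 at 1082.5 and 1206, where CD73- cells had 153 and 170. The CD49d+ and CD73+ gates may therefore share cells, which was not tested. MEF had all 12 fibroblast markers above the floor and ESC had all 12 embryonic stem cell markers above it, whereas MEF had 2 of the latter and ESC 9 of the former. The SC4 array had 5 of the 12 fibroblast markers and 6 of the 12 embryonic stem cell markers above the floor, and Nanog, Esrrb and Sox2 were at the floor in it. Over the 8 reprogramming arrays 8 to 12 of the fibroblast markers and 2 to 6 of the embryonic stem cell markers were above the floor.

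Promoter windows were available for 6 of the 9 genes, as 8 windows of 300 bases that run from 250 bases before to 50 bases after a transcription start (RefSeq, GRCm38.p6). They are shown because Cdkn1a and Ccng1 hold letters there that match a p53 site. Perp, Ptprv and Rb1 had no window, so such a match cannot be set against how a gene's level varied. In capitals is a full p53 site of 20 letters with at most 1 mismatch and no spacer, searched on both strands, which 29 of 32851 windows hold (0.09%). The upstream start of Cdkn1a lies in chr17:29090729-29091028 on the + strand and its site begins at position -51 from the start. The start of Ccng1 lies in chr11:40755237-40755536 on the - strand and its site begins at position -195. Each of these sites has 1 mismatch.
Cdkn1a, upstream start: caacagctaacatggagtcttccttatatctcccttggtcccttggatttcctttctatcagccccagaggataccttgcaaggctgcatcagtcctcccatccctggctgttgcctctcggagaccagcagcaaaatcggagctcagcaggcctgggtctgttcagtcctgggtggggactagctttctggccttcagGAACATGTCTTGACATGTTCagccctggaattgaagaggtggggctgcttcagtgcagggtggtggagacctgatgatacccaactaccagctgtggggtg
Ccng1: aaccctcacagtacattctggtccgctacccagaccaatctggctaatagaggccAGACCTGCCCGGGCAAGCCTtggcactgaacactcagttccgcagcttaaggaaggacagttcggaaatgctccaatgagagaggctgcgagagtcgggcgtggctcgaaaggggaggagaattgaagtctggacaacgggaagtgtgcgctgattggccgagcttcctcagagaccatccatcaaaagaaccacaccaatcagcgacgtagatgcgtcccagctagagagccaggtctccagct

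The second start of Cdkn1a, in chr17:29093519-29093818 on the + strand, has no such p53 site. It has a GC box, 10 letters given in capitals, searched on both strands and held by 7.01% of all windows, that begins at position -47. Cdkn2b, in chr4:89310983-89311282 on the - strand, has the same GC box at position 3. Mdm2, in chr10:117710709-117711008 on the - strand, has it on the other strand at position -91. The GC box is the letter pattern read by Sp1, and the windows are shown to set these inhibitor genes beside each other.
Cdkn1a, downstream start: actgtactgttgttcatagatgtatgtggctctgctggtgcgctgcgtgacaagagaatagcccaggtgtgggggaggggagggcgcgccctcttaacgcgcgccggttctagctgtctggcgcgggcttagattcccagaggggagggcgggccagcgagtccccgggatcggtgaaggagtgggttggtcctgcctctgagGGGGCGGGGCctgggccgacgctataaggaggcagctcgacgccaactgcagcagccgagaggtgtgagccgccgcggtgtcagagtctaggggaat
Cdkn2b: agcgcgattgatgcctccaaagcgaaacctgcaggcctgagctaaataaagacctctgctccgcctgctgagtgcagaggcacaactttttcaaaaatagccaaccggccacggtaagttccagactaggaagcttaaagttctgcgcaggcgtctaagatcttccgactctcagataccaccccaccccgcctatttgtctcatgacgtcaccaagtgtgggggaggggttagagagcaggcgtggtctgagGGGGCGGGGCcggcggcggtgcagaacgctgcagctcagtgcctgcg

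Cdkn2a has 2 windows on the - strand of chromosome 4. The upstream start, chr4:89294570-89294869, is that of p19Arf, and the downstream start, chr4:89282143-89282442, is that of p16Ink4a. The p19Arf window holds an E2F pattern (any of TTTCCCGC, TTTGGCGC, TTTCGCGC and TTTGCCGC on either strand, in 2.26% of all windows), given in capitals at position -99. The p16Ink4a window holds none of the patterns searched, nor does that of Igfbp3. A TATA box (TATAAA, in 13.62% of windows) was found in none of the 8 windows. A match describes letters only.
Cdkn2a, p19Arf start: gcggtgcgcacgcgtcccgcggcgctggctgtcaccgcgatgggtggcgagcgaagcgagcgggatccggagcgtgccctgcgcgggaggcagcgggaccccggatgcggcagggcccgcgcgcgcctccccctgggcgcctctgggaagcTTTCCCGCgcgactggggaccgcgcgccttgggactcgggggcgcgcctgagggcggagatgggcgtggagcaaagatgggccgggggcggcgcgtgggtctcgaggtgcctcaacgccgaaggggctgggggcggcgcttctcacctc
Cdkn2a, p16Ink4a start: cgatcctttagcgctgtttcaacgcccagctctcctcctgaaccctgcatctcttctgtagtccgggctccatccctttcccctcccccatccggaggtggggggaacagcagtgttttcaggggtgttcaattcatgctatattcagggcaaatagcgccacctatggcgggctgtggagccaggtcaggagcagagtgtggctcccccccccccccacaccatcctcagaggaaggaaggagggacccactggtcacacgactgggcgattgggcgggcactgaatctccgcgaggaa

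Of the 9 genes, 2 were at least 2-fold above MEF on all 8 reprogramming arrays (Perp and Rb1) and 2 were at least 2-fold below it on all 8 (Cdkn2b and Igfbp3), as the bar plots of deposited intensity show. The other 5 (Cdkn1a, Cdkn2a, Mdm2, Ccng1 and Ptprv) did not reach that difference on any of the 8. Over the 14301 genes above the floor on an array, 4.89% were called higher and 5.78% lower in the same way. These shares also stand beside each count of list genes called on all 8 arrays below. The same 4 genes were called with arrays centred or quantile normalised. MEF is 1 array, so these differences carry no test. Here and in what follows, fewer cells of a type and less RNA per cell cannot be told apart. In SC4, 3 of the 9 genes were at least 2-fold above MEF (11.0% of all genes were) and 2 below it (11.5%). In ESC, 1 was above (12.0%) and 6 were below (11.9%). Levels in ESC were lower than on every one of the 8 reprogramming arrays for 8 of the 9 genes, the exception being Igfbp3. The share of all genes with this pattern was not counted, so whether it is unusual is not known.

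**Figure D1:**
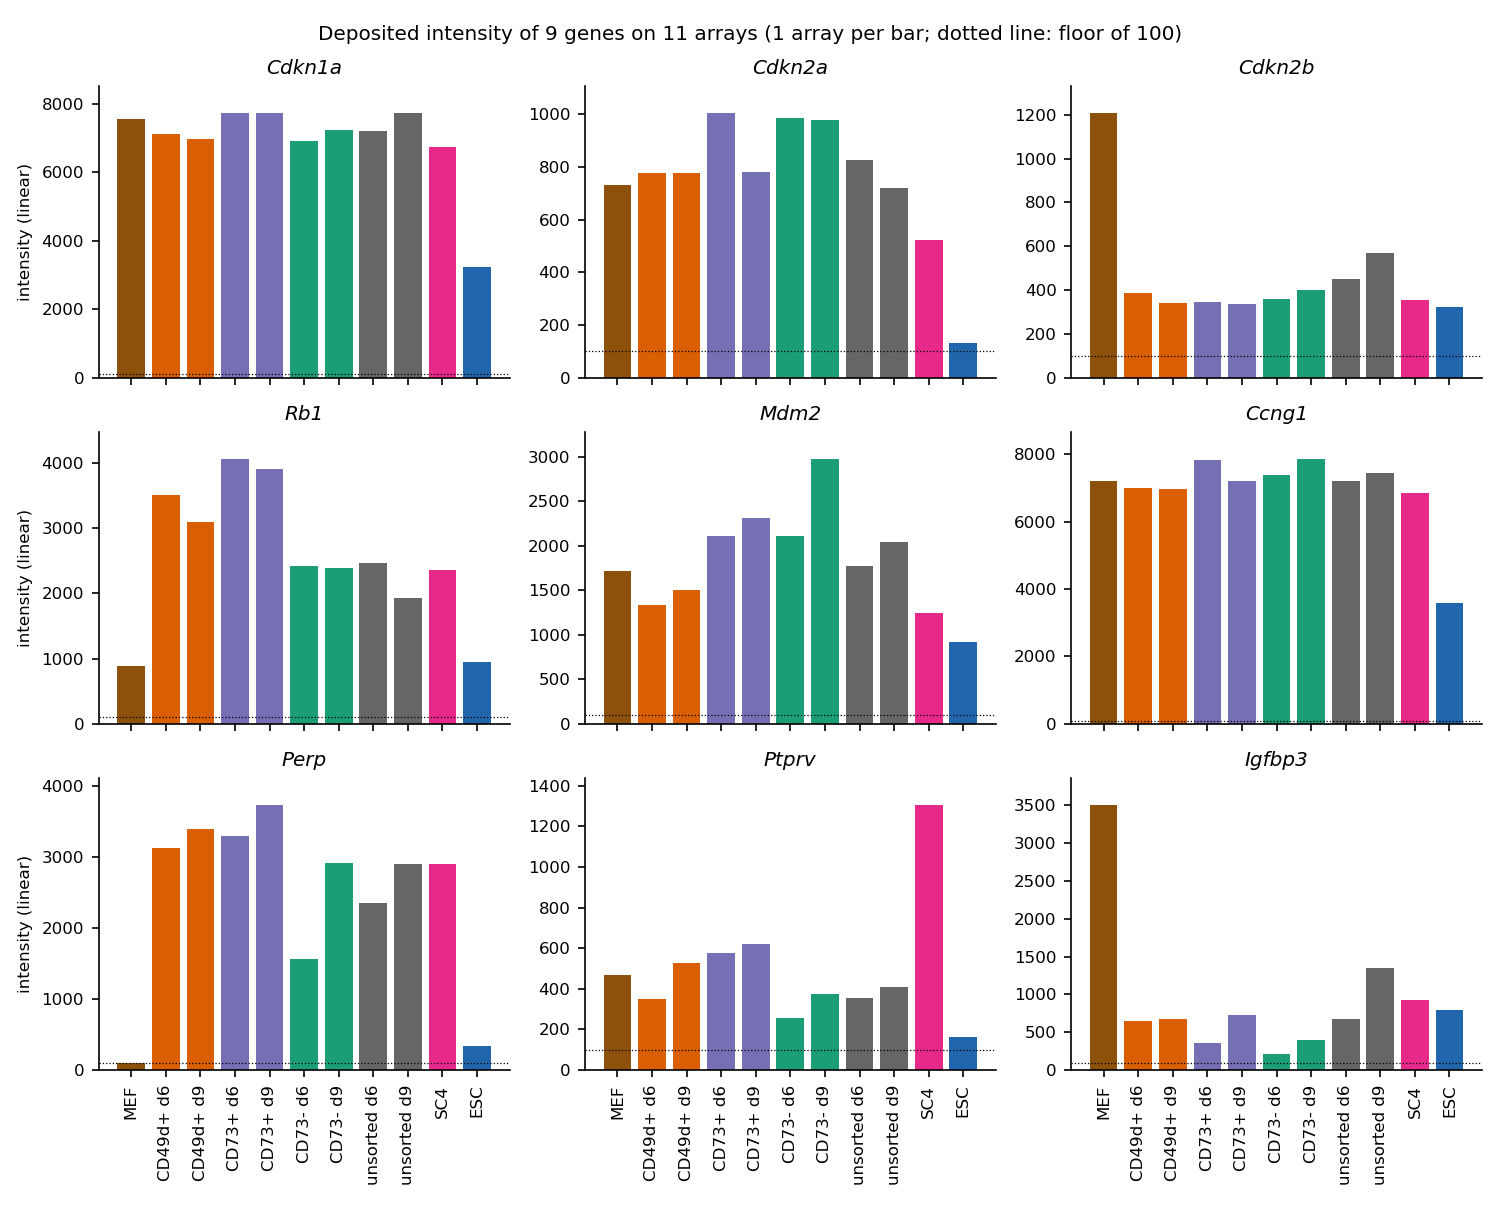
Deposited linear intensity (vertical axis, arbitrary units, a separate scale for each gene) of the 9 genes on the 11 arrays, 1 array per bar, coloured by population, with the floor of 100 as a dotted line. Cdkn1a and Ccng1 were nearly level except for ESC, Cdkn2b and Igfbp3 were highest in MEF, Perp was at the floor in MEF, and Ptprv was highest in SC4.

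Among the inhibitors of cyclin-dependent kinases, Cdkn1a stayed near its fibroblast level in every reprogramming sample. Its intensity was 7552 in MEF. The day 6 samples had 7108 in CD49d+, 7742 in CD73+, 6921 in CD73- and 7189 in unsorted cells. At day 9 it was 6973, 7723, 7246 and 7725 in the same order. These 8 arrays lay within 0.13 log2 units of MEF, from -0.13 to 0.04, and spanned 1.12-fold among themselves. SC4 had 6746, just under that range, and ESC 3243, which was 2.33-fold below MEF. Poised and CD73- cells overlapped.

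Cdkn2a was close to MEF as well. Its probe set does not separate p16Ink4a from p19Arf. The intensity was 731 in MEF. At day 6 it was 776 in CD49d+, 1006 in CD73+, 986 in CD73- and 825 in unsorted cells, and at day 9 it was 776, 780, 980 and 720. The 8 arrays thus ran from -0.02 to 0.46 log2 units against MEF, with both CD73- arrays and CD73+ cells at day 6 at the top and 5 others between 720 and 825. SC4 was lower, at 522, and ESC lowest of the 11, at 130, which was 5.61-fold below MEF and close to the floor.

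Cdkn2b, the neighbour of Cdkn2a that encodes p15Ink4b, behaved otherwise. MEF had 1210. At day 6 the intensity was 388 in CD49d+, 346 in CD73+, 359 in CD73- and 449 in unsorted cells, and at day 9 it was 339, 337, 400 and 568. All 8 arrays were below MEF, by 2.13-fold to 3.59-fold with a median of 3.24-fold. SC4 (357) and ESC (325) were at a like level, 3.39-fold and 3.73-fold below MEF. Both unsorted arrays lay above all 6 sorted arrays, a pattern that 8.8% of the genes tested had. None of the 9 genes had the opposite pattern, which 7.71% of genes had. Summed fibroblast marker intensity was also highest in unsorted cells at both days (9803 and 13531, against 3412 to 8838 in the sorted cells and 47475 in MEF), and its part in the level of Cdkn2b was not tested.

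The other genes of this family followed no common course. Of the 8 CDK inhibitor genes, 2 were called lower than MEF on all 8 arrays and none higher: Cdkn2b and Cdkn1c, which encodes p57Kip2 and was 3.25-fold lower at the median. Cdkn2c, the gene of p18Ink4c, was 643 in MEF and 212 to 338 on the 8 arrays, and Cdkn1b, the gene of p27Kip1, was 741 in MEF and 262 to 619. Cdkn2d, the gene of p19Ink4d, was 156 in MEF and 160 to 216 on the 8 arrays. The median log2 difference of the list from MEF was -0.39, beside 0.0 over all genes. In ESC, 5 of the 8 were at least 2-fold below MEF, where 11.9% of all genes were.

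Rb1, which encodes the retinoblastoma protein, a substrate of the kinases that these inhibitors block, was higher in all reprogramming cells than in MEF. MEF had an intensity of 889. At day 6 it was 3506 in CD49d+, 4064 in CD73+, 2426 in CD73- and 2461 in unsorted cells, and at day 9 it was 3097, 3908, 2397 and 1935. The arrays of poised cells lay above all 4 others, with CD73+ cells highest at both days. The share of all genes with poised cells above CD73- and unsorted cells was not counted, so whether this is unusual is not known. Against MEF the 8 arrays were 2.18-fold to 4.57-fold higher, with a median of 3.11-fold. SC4, at 2362, was 2.66-fold higher, while ESC, at 948, was within 0.09 log2 units of MEF. A second Rb1 probe set was dim, at the floor on 9 arrays, and reached 304 in CD73+ cells at day 6 and 163 in CD73+ cells at day 9. With the mean of both probe sets Rb1 was no longer 2-fold above MEF on all 8 arrays. A further pair of probe sets lists Rb1 together with Lpar6, a receptor gene that lies within an intron of Rb1, and was not used. The brighter of the pair was 920 in MEF. Its day 6 values were 1213 in CD49d+, 1404 in CD73+, 1310 in CD73- and 1104 in unsorted cells. At day 9 it was 1254, 1457, 1572 and 1213. It was thus less than 2-fold above MEF on all 8 arrays, and CD73- cells at day 9 were highest. The dimmer was 167 in MEF and 178 to 316 on the 8 arrays. Which of the genes these probe sets read was not tested.

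Lists of genes that work with Rb1 or downstream of it were compared in the same way. Among pocket proteins and the E2F and DP factors they bind, 3 of 17 were called higher on all 8 arrays and none lower: Rb1, E2f8 (3.52-fold at the median) and E2f7 (2.64-fold), the last 2 being repressors among the E2F factors. Rbl1, the gene of the pocket protein p107, ran from 0.70 to 1.41 log2 units above MEF, and Rbl2, the gene of p130, from -0.76 to 0.42. Of the G1 cyclins, their kinases and Cdc25a, 4 of 9 were called higher and none lower. These were Cdc25a (3.81-fold), the phosphatase that activates CDK2, Ccna2 (3.74-fold), Cdk6 (2.58-fold) and Ccne1 (2.44-fold), and 3 of the 9 were called once arrays were centred on their median or quantile normalised. Of 19 proliferation markers 15 were called higher (14 under either scaling) and none lower, led by the replication helicase genes Mcm6 (5.49-fold) and Mcm5 (5.24-fold), then Birc5 (5.20-fold) and the spindle checkpoint gene Bub1 (4.62-fold). The list medians were 0.75, 0.95 and 1.81 log2 units, beside 0.0 over all genes. Centring the arrays moved the median of all genes to -0.12.

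Of Mdm2 and Ccng1, which both feed back on p53, Ccng1 was close to MEF in every reprogramming sample. Ccng1, the gene of cyclin G1, was 7216 in MEF. The day 6 arrays had 6988 in CD49d+, 7826 in CD73+, 7390 in CD73- and 7211 in unsorted cells, and at day 9 it was 6981, 7201, 7865 and 7438. The 8 arrays spanned 1.13-fold and none was more than 0.12 log2 units from MEF. SC4 had 6863, and ESC, at 3581, was 2.02-fold below MEF. The groups of poised and CD73- cells overlapped.

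Mdm2 varied more between the populations. MEF had an intensity of 1716. Day 6 values were 1333 in CD49d+, 2105 in CD73+, 2115 in CD73- and 1772 in unsorted cells. At day 9 it was 1501, 2316, 2977 and 2042. CD49d+ cells were lowest of the 4 populations at both days and below MEF, and CD73- cells were highest at both days. SC4 (1248) and ESC (915) lay below all 8 arrays, and ESC was 1.88-fold below MEF. The 8 arrays ran from -0.36 to 0.80 log2 units against MEF.

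Of 16 regulators and relatives of p53 above the floor on an array, Mdm2 included, 2 were called higher on all 8 arrays and none lower: Chek1 (3.77-fold at the median) and Atr (2.45-fold), kinases of the replication checkpoint. With arrays centred 1 of the 16 was called. Mdm4, which encodes an inhibitor of p53 related to Mdm2, ran from 0.45 to 1.46 log2 units above MEF. The p53 relative Trp63 was at the floor on all 11 arrays. Trp73 was at the floor on 9 and reached 102 in unsorted cells at day 9 and in SC4. Rchy1, the gene of a p53 ubiquitin ligase, was lower than MEF on all 8 arrays, by 1.47-fold at the median. The list median was 0.86 log2 units, beside 0.0 over all genes.

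Perp, which encodes a tetraspan membrane protein of desmosomes and is a target of p53 and p63, had the largest range of the 9 genes. MEF was at the floor of 100. At day 6 the intensity was 3125 in CD49d+, 3295 in CD73+, 1563 in CD73- and 2350 in unsorted cells, and at day 9 it was 3400, 3734, 2914 and 2898. All 8 arrays were at least 15.6-fold above MEF, and at the median of the arrays at least 30.2-fold. CD73- cells at day 6 were the lowest of the 8, and the arrays of poised cells lay above the other 4, a pattern whose share of all genes was not counted. SC4 had 2898, at least 29.0-fold above MEF, and ESC had 342, at least 3.42-fold above it.

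Of 8 desmosome and epithelial genes above the floor on an array, Perp included, 2 were called higher on all 8 arrays, Perp itself and the desmoplakin gene Dsp. Dsp was at the floor in MEF, 491 to 1510 on the 8 arrays, 566 in SC4 and 300 in ESC, and was at least 11.5-fold above MEF at the median. The plakoglobin gene Jup, in contrast, was 1004 in MEF and between 239 and 1165 on the 8 arrays. Epidermal keratinocyte markers were checked beside these. Trp63 and Lor were at the floor on all 11 arrays. Of 7 such markers, 2 to 3 were above the floor in sorted cells and 5 in unsorted cells, with a summed intensity of 825 to 931 in sorted cells, 1786 and 1829 in unsorted cells and 837 in MEF. Krt14 reached 943 and 989 in unsorted cells, against 163 to 252 in sorted cells. The part of these markers in the level of Perp was not tested.

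Ptprv, a receptor tyrosine phosphatase gene induced by p53, was 470 in MEF. The day 6 values were 350 in CD49d+, 579 in CD73+, 259 in CD73- and 353 in unsorted cells. At day 9 it was 529, 619, 372 and 408. CD73+ cells were highest and CD73- cells lowest of the 4 populations at both days. SC4 stood apart at 1305, 2.78-fold above MEF and above every other array, and ESC, at 165, was 2.84-fold below MEF.

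Igfbp3, which encodes a secreted protein that binds insulin-like growth factors, was brightest in MEF, at 3502. At day 6 it was 648 in CD49d+, 362 in CD73+, 208 in CD73- and 675 in unsorted cells. At day 9 it was 670, 722, 392 and 1355. Every reprogramming array was below MEF, by 2.59-fold to 16.8-fold with a median of 5.32-fold. CD73- cells were lowest and unsorted cells highest at both days. SC4 (930) and ESC (792) were 3.77-fold and 4.42-fold below MEF.

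Most of the IGF axis was lower than in MEF. Of its 13 genes above the floor on an array, 10 were called lower on all 8 arrays and none higher, also with arrays centred or quantile normalised, and the list median was -2.41 log2 units beside 0.0 over all genes. Igfbp5 was 2972 in MEF and at the floor on 6 of the 8 arrays, at least 29.7-fold lower at the median. Igf1 was 1314 in MEF and at most 166 on the 8 arrays. Igf2, Igfbp4 and Igfbp7 were lower by 8.32-fold, 7.44-fold and 7.24-fold at the median. The fibroblast markers moved with these genes. Their summed intensity was 47475 in MEF, 3412 to 13531 on the 8 reprogramming arrays, 1751 in SC4 and 3510 in ESC, with Lum at the floor on 5 of the 8, and their part in the lower level of Igfbp3 was not tested.

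**Figure D2:**
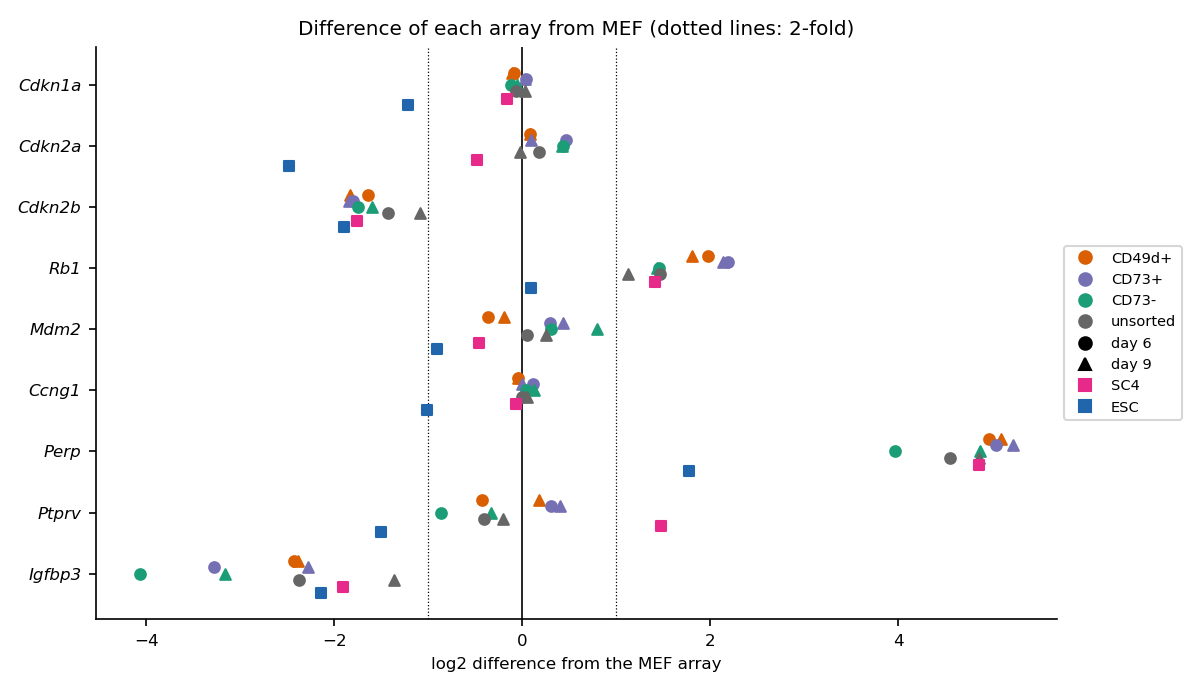
Log2 difference of each array from the MEF array (horizontal axis) for the 9 genes, with circles for day 6, triangles for day 9, squares for SC4 and ESC, and dotted lines at 2-fold. All 8 reprogramming arrays of Perp and Rb1 lie right of the upper line and all 8 of Cdkn2b and Igfbp3 left of the lower one, and ESC is left of the reprogramming arrays for every gene but Igfbp3.

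Of 40 p53 target genes listed, 36 had a probe set that lists their symbol alone, and Bax, Gadd45a, Ddb2 and Gdf15 had none. All 36 were above the floor on an array. Among them Perp was the one called higher on all 8 arrays and Igfbp3 the one called lower, where 4.89% and 5.78% of all genes were. The median of the list was 0.03 log2 units, and -0.09 with arrays centred, beside 0.0 and -0.12 over all genes. In ESC 12 of the 36 were at least 2-fold below MEF and 1 above, where 11.9% and 12.0% of all genes were. In SC4 3 were below and 5 above, where 11.5% and 11.0% of all genes were. Of the 9 senescence-associated genes above the floor on an array, Lmnb1, the lamin gene that is lost in senescent cells, was 3.72-fold above MEF at the median, and the collagenase and stromelysin genes Mmp13 and Mmp3 were called lower. Of 17 regulators of the Cdkn2a locus, 1 was called higher on all 8 arrays, the Polycomb methyltransferase gene Ezh2 (3.32-fold), and none lower. That is near the 4.89% of all genes called higher.

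**Figure D3:**
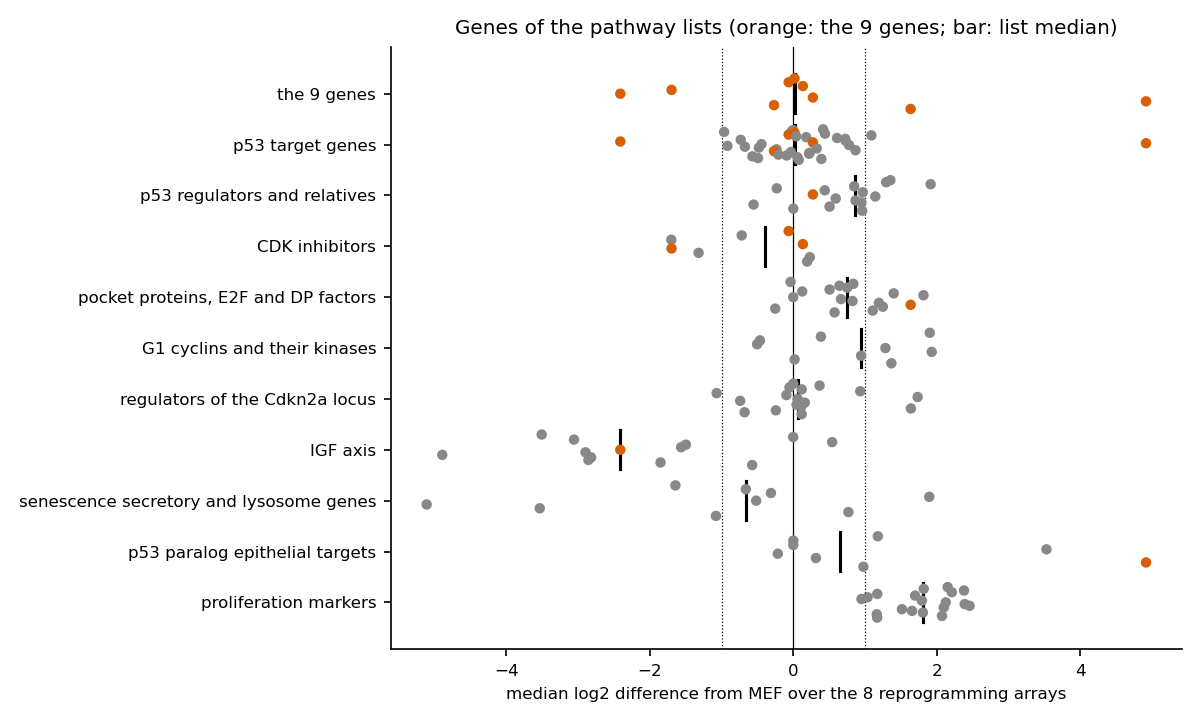
Median log2 difference from MEF over the 8 reprogramming arrays (horizontal axis), 1 point per gene, for the 9 genes (orange, top row and wherever they recur) and 10 lists of related genes, with a bar at each list median and dotted lines at 2-fold. Proliferation markers lie to the right, with a median of 1.81, the IGF axis lies to the left, with a median of -2.41, and p53 targets centre on 0.03.

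The labels set poised against non-poised cells. As the mean of both gates, poised cells had more RNA of Rb1, Ptprv and Igfbp3 and less of Mdm2 than CD73- cells. The 3 inhibitor genes Cdkn1a, Cdkn2a and Cdkn2b did not pass. In the limma fit of the 8 reprogramming arrays, with terms for population and day, 4 of the 9 genes had an adjusted p (Benjamini-Hochberg) under 0.05, 3 of them higher and 1 lower, where 12.0% of all 13313 genes tested passed, 7.16% higher and 4.85% lower. With arrays centred on their median the split over all genes was 1141 higher and 1121 lower, in place of 953 and 646. The error of this fit is how far a difference between populations varied from day 6 to day 9. The labels do not give the days as separate cultures, so the p-values measure agreement between days only, and that spread may be technical.

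Rb1 rose by 0.59 ± 0.0837 log2 units (SE, adjusted p = 0.0194), with differences of 0.64 at day 6 and 0.54 at day 9. Both gates of poised cells lay above both CD73- arrays, as they did for Perp, whereas the groups of the other 7 genes overlapped across the days. All of the poised arrays were above both CD73- arrays for 14.5% of the genes tested and below them for 18.4%. Ptprv rose by 0.71 ± 0.123 (adjusted p = 0.0289), 0.80 at day 6 and 0.62 at day 9. Igfbp3 rose by 1.02 ± 0.222 (adjusted p = 0.0479), 1.22 at day 6 and 0.83 at day 9. Mdm2 fell by 0.505 ± 0.0898 (adjusted p = 0.0302), with -0.34 at day 6 and -0.675 at day 9. The larger part came from CD49d+ cells, with -0.665 and -0.99 on these days. CD73+ cells had -0.007 at day 6, which is no difference, and -0.36 at day 9.

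Perp differed by 0.66 ± 0.174 (adjusted p = 0.0711), with 1.04 at day 6 and 0.29 at day 9, and did not pass as deposited. It passed with arrays centred (adjusted p = 0.022). Within each day, both poised arrays exceeded the CD73- array for Igfbp3, Ptprv, Perp and Rb1, a pattern held by 17.9% of genes. For Mdm2 they were below it, a pattern held by 22.5%, though the difference of CD73+ cells at day 6 was only -0.007. Cdkn2a had a difference of -0.25 ± 0.0944 (adjusted p = 0.158), Cdkn2b of -0.105 ± 0.118 (adjusted p = 0.625), Ccng1 of -0.07 ± 0.0631 (adjusted p = 0.502) and Cdkn1a of 0.06 ± 0.0548 (adjusted p = 0.545). For Cdkn1a, Cdkn2b and Ccng1 the difference was under 2 standard errors.

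Most of the calls ended when 1 array was left out, a fit with 2 residual degrees of freedom. Without each of the 8 arrays in turn, Mdm2 missed the threshold every time (adjusted p from 0.0621 to 0.126). Igfbp3 kept its call without either CD49d+ array and missed it without each of the other 6 (0.106 to 0.257). Ptprv kept it without CD49d+ cells at day 9 (0.0493) and missed it otherwise (0.0519 to 0.188). Rb1 kept it without CD49d+ or unsorted cells at day 9 and missed it otherwise (0.0581 to 0.135). Perp passed without CD73- cells at day 9 (0.0483). The log2 differences of these 5 genes kept their sign in each of these fits. On all 8 arrays, leaving out the day term ended the calls of Mdm2, Igfbp3 and Ptprv (0.097, 0.192 and 0.0974), and no filter those of Mdm2 (0.0503) and Igfbp3 (0.0798). The offset of 100 ended that of Igfbp3 (0.0586), and the fit of the 6 sorted arrays ended those of Mdm2 (0.0575) and Igfbp3 (0.0718). The count over all genes ran from 1, without unsorted cells at day 6, to 1775, without CD49d+ cells at day 9.

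**Figure D4:**
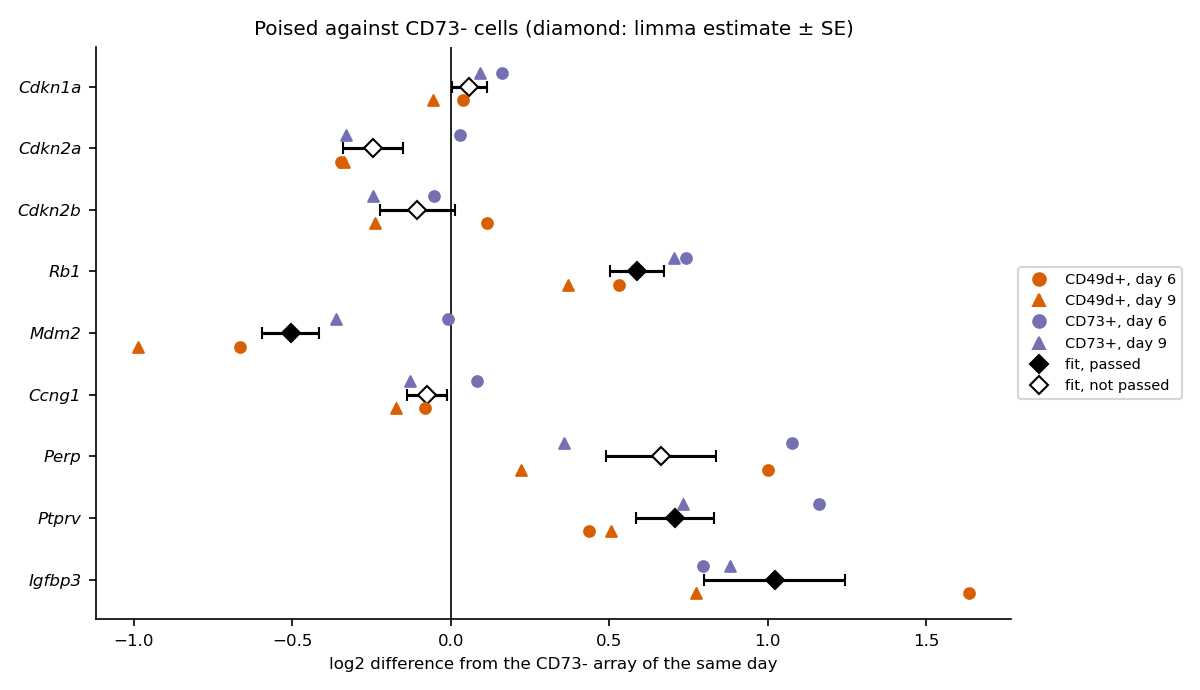
Log2 difference of each poised array from the CD73- array of the same day (horizontal axis) for the 9 genes, with orange for CD49d+, purple for CD73+, circles for day 6 and triangles for day 9, and the limma estimate of poised minus CD73- with its standard error as a diamond, filled where it passed. Rb1, Ptprv, Igfbp3 and Mdm2 passed, the 4 points of Perp are all above 0 but far apart by day, and CD49d+ cells lie left of CD73+ cells for Mdm2.

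The 2 poised gates were also compared with CD73- cells one at a time. They share the CD73- arrays, and each gate had RNA of both sorted proteins above the CD73- level, so the gates are not independent of each other. In CD73+ minus CD73- cells, 2 of the 9 genes passed in limma, where 8.0% of all genes did (5.06% higher and 2.94% lower): Ptprv rose by 0.95 ± 0.142 (adjusted p = 0.029) and Rb1 by 0.725 ± 0.0967 (adjusted p = 0.0233). Igfbp3, at 0.84 ± 0.257 (adjusted p = 0.114), and Mdm2, at -0.18 ± 0.104 (adjusted p = 0.32), did not. Ptprv and Rb1 kept their calls without either CD49d+ array and missed them without each of the other 6 (0.0827 to 0.162 for Ptprv, 0.0538 to 0.2 for Rb1), and Igfbp3 passed without CD49d+ cells at day 6 (0.0216) or at day 9 (0.0198).

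In CD49d+ minus CD73- cells, 3 of the 9 passed, where 13.3% of all genes did (7.69% higher and 5.66% lower). Mdm2 fell by 0.83 ± 0.104 (adjusted p = 0.0153), Igfbp3 rose by 1.205 ± 0.257 (adjusted p = 0.0436) and Rb1 by 0.45 ± 0.0967 (adjusted p = 0.0444). Ptprv, at 0.47 ± 0.142 (adjusted p = 0.0943), did not pass as deposited. Mdm2 kept its call without CD73- cells at day 6 (0.0495) and Igfbp3 without CD49d+ cells at day 9 (0.0222). Without each of the other 7 arrays in turn Mdm2 reached 0.052 to 0.0796 and Igfbp3 0.0537 to 0.194, and Rb1 missed the threshold without any of the 8 (0.0575 to 0.186). With no filter or no day term the calls of Igfbp3 (0.0727 and 0.184) and Rb1 (0.074 and 0.0787) ended, and that of Igfbp3 ended also with an offset of 100 (0.0524) or the 6 sorted arrays (0.0664). With the mean of its 2 probe sets Rb1 differed by 0.225 (adjusted p = 0.294).

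Between the 2 gates themselves none of the 9 genes passed in limma, where 0.03% of genes (4 of 13313, 0.00751% higher and 0.0225% lower in CD49d+) did. An unadjusted p under 0.05 was found for 3212 genes and for 3 of the 9. Mdm2 came closest, with CD49d+ minus CD73+ at -0.64 ± 0.104 (adjusted p = 0.0621), -0.66 at day 6 and -0.63 at day 9. It passed with arrays centred (adjusted p = 0.0305) or quantile normalised (adjusted p = 0.041). Ptprv had -0.48 ± 0.142 (adjusted p = 0.131), Rb1 -0.27 ± 0.0967 (adjusted p = 0.174) and Igfbp3 0.37 ± 0.257 (adjusted p = 0.443). Mdm2 was thus lower in CD49d+ than in CD73+ cells at both days, and as deposited the difference missed the threshold. Most fibroblast markers went the opposite way, higher in CD49d+ cells, although Dcn had a difference of -0.375. Their summed intensity was 8838 and 5304 in CD49d+ cells against 4419 and 3412 in CD73+ cells, with Lum, Pdgfra and Pdgfrb at the floor in both CD73+ samples, and Postn had a difference of 2.43 (adjusted p = 0.0621) and Thy1 of 1.82 (adjusted p = 0.112). Their part in the difference of Mdm2 was not tested.

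Marker lists differed between poised and CD73- cells too. Summed fibroblast marker intensity was 3412 to 8838 in poised cells and 6720 and 8751 in CD73- cells, so the groups overlapped, and of these markers Col3a1 fell by 1.13 (adjusted p = 0.0189) and Postn by 1.95 (adjusted p = 0.0284). Summed endothelial marker intensity was 1825 to 2377 in poised cells and 1164 and 1409 in CD73- cells without overlap. Of its 7 genes 3 to 5 were above the floor in poised cells and 3 in CD73- cells, Emcn was at the floor on all 6 arrays, and Cdh5 was at the floor on all but CD73+ cells at day 9. Within that list the genes went both ways. Tek, which encodes the angiopoietin receptor, rose by 1.30 (adjusted p = 0.00786) and the claudin gene Cldn5 by 0.52 (adjusted p = 0.0138), Egfl7 fell by 0.29 (adjusted p = 0.0428), and Pecam1 had -0.34 (adjusted p = 0.303). Of the macrophage and blood cell markers Laptm5 rose by 1.17 (adjusted p = 0.00856), while Ptprc, Csf1r and Itgam were at the floor on all 11 arrays and the summed intensity was 1372 to 1494 in poised cells and 1254 and 1386 in CD73- cells. Of the embryonic stem cell markers Utf1 fell by 1.06 (adjusted p = 0.0144) and Sall4 rose by 0.765 (adjusted p = 0.0258). No keratinocyte or skeletal muscle marker passed. The part of these markers in the differences of the 9 genes was not tested. None of 19 proliferation markers passed in limma between poised and CD73- cells (1 of them, Cdc20, had an unadjusted p under 0.05, and 1 fell with arrays centred), and their median was -0.04, beside -0.01 over all genes.

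The wider pathway was read against the 12.0% of all genes that passed between poised and CD73- cells. Of 36 p53 targets, 2 rose (Ptprv and Igfbp3) and 2 fell, Mdm2 and the kinase gene Plk2 by 0.36 ± 0.0576 (adjusted p = 0.0256), and the list median was -0.085 beside -0.01 over all genes. With arrays centred 4 rose and 6 fell, and with quantile normalization 3 and 5. More of all genes passed under these scalings too, 2262 of 13313 with centring and 1997 with quantile normalization, in place of 1599. Of 16 p53 regulators, Hipk2, whose kinase phosphorylates p53, rose by 0.83 ± 0.165 (adjusted p = 0.0388), and Mdm2 and the damage kinase gene Atm fell, Atm by 0.41 ± 0.0756 (adjusted p = 0.0333). Of 8 CDK inhibitors, Cdkn2c fell by 0.34 ± 0.0649 (adjusted p = 0.0348), and Cdkn1b had a difference of 0.49 ± 0.142 (adjusted p = 0.0883). Of 17 pocket protein and E2F genes 3 rose and none fell. These were Rb1, E2f2 by 0.42 ± 0.0756 (adjusted p = 0.0314) and Lin37, of the DREAM repressor complex, by 0.305 ± 0.0669 (adjusted p = 0.0489). Rbl2 had 0.43 ± 0.105 (adjusted p = 0.0615).

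Of 17 regulators of the Cdkn2a locus, the inhibitory helix-loop-helix gene Id1 rose by 0.91 ± 0.14 (adjusted p = 0.0226) and the Polycomb gene Cbx7 by 0.44 ± 0.0803 (adjusted p = 0.0323). Ets1, an activator of p16Ink4a, fell by 0.795 ± 0.167 (adjusted p = 0.0443) and the Polycomb gene Eed by 0.48 ± 0.0806 (adjusted p = 0.0273). Ets1 was at the floor on both CD73+ arrays, so its difference may be understated. In the IGF axis, Irs1, which relays signals from the IGF receptor, rose by 0.76 ± 0.134 (adjusted p = 0.03) with Igfbp3, and none of 13 fell. Among desmosome and epithelial genes Dsp rose by 1.27 ± 0.078 (adjusted p = 0.00445) and the plakophilin gene Pkp1 by 0.95 ± 0.0796 (adjusted p = 0.00648), while the desmocollin gene Dsc3 fell by 0.57 ± 0.0923 (adjusted p = 0.0258). Of 9 G1 cyclin and kinase genes, Ccne1 fell by 0.31 ± 0.0537 (adjusted p = 0.0289), and none of 9 senescence-associated genes passed in limma (1 of them, Ccl2, had an unadjusted p under 0.05, and 1 fell under either scaling).

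Taken singly, the 2 gates gave these values for list genes. In CD73+ minus CD73- cells Hipk2 rose by 1.13 ± 0.19 (adjusted p = 0.0351), Rbl2 by 0.65 ± 0.121 (adjusted p = 0.0424), the p53 acetyltransferase gene Ep300 by 0.57 ± 0.0985 (adjusted p = 0.0376) and Cd80 by 0.52 ± 0.0876 (adjusted p = 0.0351), while the chemokine gene Ccl2 fell by 1.60 ± 0.228 (adjusted p = 0.0267). In CD49d+ minus CD73- cells Irs1 rose by 0.98 ± 0.155 (adjusted p = 0.0236), Igfbp2 by 0.60 ± 0.106 (adjusted p = 0.03) and the stress gene Sesn1 by 0.59 ± 0.123 (adjusted p = 0.041), and Atm fell by 0.65 ± 0.0873 (adjusted p = 0.0173). Between the gates no gene of the lists passed in limma as deposited (lowest adjusted p = 0.0593, Cd80). With arrays centred or quantile normalised some did. Under either scaling 2 p53 targets and 2 regulators were lower in CD49d+ than in CD73+ cells, Mdm2 being in both lists, and 1 epithelial gene was lower. Higher under either were 1 gene of the IGF axis and 1 senescence-associated gene. Quantile normalization alone added 1 p53 target, 1 CDK inhibitor and 1 pocket protein or E2F gene as higher, and 1 G1 gene as lower. Of all 13313 genes 328 were higher and 302 lower with centring, and 562 and 251 with quantile normalization.

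From day 6 to day 9, Mdm2, Igfbp3, Ptprv and Perp were higher in all 4 populations, as were 8.14% of the genes tested, and Rb1 was lower in all 4, as were 9.22%. No gene passed in limma between the days (0.0% of 13313 as deposited, 5 genes when quantile normalised and 137 when centred), and 1545 genes, the same 4 of the 9 among them, had an unadjusted p under 0.05. Igfbp3 had the largest day difference of the 9, at 0.74 ± 0.182 (adjusted p = 0.275). It was 0.05 in CD49d+, 0.999 in CD73+, 0.91 in CD73- and 1.004 in unsorted cells. Perp differed by 0.38 ± 0.142 (adjusted p = 0.416), with 0.90 in CD73- cells and 0.12 to 0.30 in the others. Ptprv differed by 0.36 ± 0.1 (adjusted p = 0.314), Mdm2 by 0.25 ± 0.0733 (adjusted p = 0.323) and Rb1 by -0.15 ± 0.0684 (adjusted p = 0.495). The 4 populations of a day are not replicates of that day.

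The genes whose log2 values ran most like those of a member over the 11 arrays were sought among 5107 genes above the floor on all arrays with a range of at least 2-fold (5509 genes above the floor on 10 arrays for Perp). All points share the ESC array, which is low for most of the 9 genes. Single control arrays stood apart for other genes too. MEF was far above the rest for Cdkn2b and Igfbp3 and alone at the floor for Perp, and SC4 was highest for Ptprv. By ranks (Spearman), the pairs of a member and a gene named here as most like it ran from 0.718 to 0.998. For Cdkn1a they were Cr1l, Ccnd2 and Ccng1 (Pearson r = 0.99, 0.98 and 0.98), and over the 8 reprogramming arrays alone Cdkn1a and Ccng1 had r = 0.42. For Cdkn2a they were Scap, Abracl and Rnf217 (0.98 each), and for Cdkn2b Pls3, Adamtsl5 and Slc2a10 (0.99, 0.98 and 0.98). Mdm2 ran most like Degs1, Slc39a6 and Six2 (0.94, 0.93 and 0.91), Igfbp3 most like Rab31, Gabarap and Coro1b (0.96, 0.93 and 0.93), and Ptprv most like Tpcn2, Cmtm7 and Rnf13 (0.96, 0.94 and 0.94). For Perp they were Cth, Reep1 and Abhd17c (0.98 each), and for Rb1 Dock11, Med21 and Plagl2 (0.97, 0.97 and 0.96). Of all pairs within the set, Cdkn2a and Igfbp3 had the lowest r over the 8 reprogramming arrays (-0.91, and -0.25 over all 11). Perp and Ptprv had the highest (0.86, and 0.37 over all 11). They were picked as the extremes of all pairs on 8 arrays.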

How the data were processed

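Total RNA of 11 mouse cell samples was labelled, per the labels' protocols, with a GeneChip WT Terminal Labeling kit of Affymetrix, and 1 array was run per sample. The authors deposited 1 table of intensities for 41345 probe sets. Partek is named, with no version, in the submitters' processing notes, and no source used here gives the summarisation, background correction or scaling. On the linear scale the deposited intensities have a floor of 100, and a value at the floor is an upper bound. log2 was taken of the deposited intensities without added scaling.

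Of the probe sets 23521 list 1 symbol, 1814 several and 16010 none in the platform annotation held by GEO, and only the first kind was used. A gene with several probe sets (1082 of 22180 genes) took that of highest mean over the arrays. A limma model (version 3.58.1, R 4.3.3, lmFit and eBayes) of population and day was fitted to the 8 reprogramming arrays, with 3 residual degrees of freedom, for 13313 genes above the floor on an array and varying over the 8. p-values were adjusted by Benjamini-Hochberg over these. ± marks a standard error. MEF, SC4 and ESC were compared as 1 array each, at 2-fold (1 log2 unit), with no test. The number of arrays limits the precision. The fit was tested on simulated data with independent noise on each array and no floor. That test cannot show how the error behaves for related arrays or for values at the floor. Alternatives were 2 scalings, no filter, an offset of 100, no day term, the 6 sorted arrays, the mean of probe sets and 1 array left out at a time.

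The genes and the lists of related genes were chosen with earlier results of these data known, so counts over them are descriptions. The 9 genes found are given in every comparison. From a list, at most 6 genes that passed a contrast and at most 4 genes per direction called against MEF are named, beside close relatives of the 9 genes. Motifs were searched with Python 3.11.15.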

Additional observations from a re-analysis of the deposited data

Results flagged for a closer look

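From day 6 to day 9, 3 of the 9 genes differed one way in both poised populations and the other way in CD73- cells. Cdkn1a differed by 0.066 log2 units in CD73- cells, by -0.03 in CD49d+ cells and by -0.004 in CD73+ cells. Cdkn2b differed by 0.158 in CD73- cells, by -0.195 in CD49d+ cells and by -0.04 in CD73+ cells, with 0.34 in unsorted cells. Ccng1 differed by 0.09 in CD73- cells, by -0.002 in CD49d+ cells and by -0.12 in CD73+ cells. Each value is a difference of 2 arrays, and whether the poised and the CD73- cells differ in this was not tested.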

How the results depend on the processing

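No difference of the 9 genes that passed changed its sign under the alternatives run, which were not run gene by gene for the lists. Genes that passed between poised and CD73- cells numbered 1599, and 994 with no filter, and of the 9 genes 4 passed, 2 with no filter, 1 without the day term and 2 with the 6 sorted arrays. For CD73+ minus CD73- the 1065 genes became 1704 with arrays centred, 1533 with quantile normalization, 497 with no filter, 612 without the day term and 616 with the 6 sorted arrays, and the 2 of the 9 genes 3 with centring and 1 without the day term. For CD49d+ minus CD73- the 1777 genes became 1007 with no filter and 1183 with the 6 sorted arrays, and the 3 of the 9 genes 5 with centring and 1 both with no filter and without the day term. For CD49d+ minus CD73+ the 4 genes became 630 with centring, 813 with quantile normalization, 174 with the offset of 100, 160 without the day term, 1 with no filter and 0 with the 6 sorted arrays, and the 0 of the 9 genes became 1 under either scaling. For day 9 minus day 6 the 0 genes became 137 with centring and 5 with quantile normalization. Against MEF, Cdkn2b was lost with the offset of 100, which left 1 gene called lower, and Rb1 with the mean of probe sets, which left 1 called higher. Leaving out 1 array at a time gave 1 to 1775, 0 to 1009, 1 to 1204, 0 to 0 and 0 to 0 genes for these 5 contrasts, 0 to 3, 0 to 3, 0 to 1, 0 to 0 and 0 to 0 of the 9 genes, and 2 to 2 genes called against MEF in either direction. No filter adjusts over more genes. Otherwise the cause was not tested. Of the other results 280 kept their call, 7 gained and 77 lost it, and 1 count of a list moved. Counts over lists under other scalings were added after the data were seen: between poised and CD73- cells 4 p53 targets rose and 6 fell with centring (3 and 5 with quantile normalization), as did 4 and 1 epithelial genes (2 and 1) and 4 and 1 pocket protein and E2F genes under either. Of all 13313 genes tested, 1141 rose and 1121 fell with centring, and 1055 and 942 with quantile normalization. No paired analysis was possible because each group has 1 array, so replicate numbers pair no samples. Populations were paired by day through the day term.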
